A study of Mus musculus with 5 samples.

Results

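The genes described here are 10 SOX transcription factor genes, Sox1, Sox2, Sox3, Sox4, Sox5, Sox6, Sox9, Sox10, Sox11 and Sox12, taken by symbol from an expression table of 17739 genes, which holds all 10. The samples are 5 libraries of cerebellar tumour cells from Math1-Cre;Gli2A mice, which carry Math1-Cre and a Gli2A allele from the R26 line and ate a doxycycline diet from conception (embryonic day 0). The labels give all 5 the state GLI2 active and the cell type medulloblastoma, so they form 1 group with no control. Each library is called a tumour here, with the number its title carries, which is 1, 5, 8, 14 or 15. Whether each number is a separate animal is not stated, and the spread between libraries may be partly technical. Age and sex of the animals are not stated in the labels. Math1-Cre acts in cells that have expressed Math1 (Atoh1), among them granule neuron progenitors. The granule lineage markers Zic1 (15.08 ± 0.05, SD, n = 5) and Neurod1 (14.16 ± 0.08) were among the abundant genes of the table, and Atoh1 averaged 8.62 ± 0.67, with its lowest value in tumour 1 and its highest in tumour 15.

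SOX proteins bind DNA through an HMG box and usually act with a partner factor. SOXB1 proteins (SOX1, SOX2, SOX3) keep neural progenitors undifferentiated, and SOXC proteins (SOX4, SOX11, SOX12) act as progenitors become neurons. SOXE proteins (SOX9, SOX10) direct glial fates, and SOXD proteins (SOX5, SOX6), which have no activation domain of their own, modulate the action of other SOX factors. In mouse models of SHH medulloblastoma, SOX2 is known as a marker of a rare, slowly cycling cell population.

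The HMG box defines the family, so a coding stretch of 60 bases from it is shown for each member to show how far the genes differ where they are related. Sequences are from GENCODE M21 transcripts on GRCm38, with capitals where the base differs from Sox2.
Sox2: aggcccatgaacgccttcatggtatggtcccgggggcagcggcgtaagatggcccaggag
Sox1: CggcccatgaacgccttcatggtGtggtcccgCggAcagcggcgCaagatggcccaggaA
Sox3: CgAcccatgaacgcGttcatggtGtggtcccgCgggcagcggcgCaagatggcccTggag
Sox4: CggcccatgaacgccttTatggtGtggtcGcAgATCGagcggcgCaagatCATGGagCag
Sox11: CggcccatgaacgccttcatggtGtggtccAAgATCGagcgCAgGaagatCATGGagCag
Sox12: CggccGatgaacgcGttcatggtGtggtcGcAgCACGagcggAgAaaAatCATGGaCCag
Sox9: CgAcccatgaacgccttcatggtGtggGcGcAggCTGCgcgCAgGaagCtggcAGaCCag
Sox10: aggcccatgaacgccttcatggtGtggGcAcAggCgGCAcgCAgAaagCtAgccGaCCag
Sox5: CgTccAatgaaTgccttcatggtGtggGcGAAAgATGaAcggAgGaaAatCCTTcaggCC
Sox6: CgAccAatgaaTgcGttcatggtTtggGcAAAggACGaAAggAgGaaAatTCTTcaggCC
Over these 60 bases Sox1 differs from Sox2 at 6 and Sox3 at 7, whereas Sox5 differs at 23 and Sox6 at 24. Within a subgroup the identity was 83.3% to 91.7%, and between subgroups 60.0% to 76.7%. The Sox2 stretch lies at chr3:34650548-34650607 on the plus strand and the Sox4 stretch at chr13:28952782-28952841 on the minus strand. The longest run of identical bases between the longest transcripts of any pair of members was 48, between Sox4 and Sox11. Sox1 and Sox3 shared a run of 45 and Sox9 and Sox10 a run of 44. How the submitters treated reads that fit several genes, and the read length, were not stated, so reads shared by close paralogs could not be assessed.

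All 10 genes had a mean above 5 on the deposited log2 scale, as did 13691 of the 17739 genes of the table. A mean in the top 25% of the table was found for 7 of the 10, and for 6 when tumour 1 or tumour 15 was left out. The values are log2 levels corrected for library size and not for transcript length. Genes are therefore compared with each other only after the log2 of the exon length in kb is subtracted, which gives a log2 level per kb. On that scale the order was Sox4, Sox11, Sox12, Sox9, Sox2, Sox10, Sox1, Sox5, Sox3 and Sox6, from 11.50 for Sox4 to 5.48 for Sox6, and again 7 of 10 lay in the top 25%. The SOXC genes took the first 3 places, and the SOXD genes and Sox3 the last 3.

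**Figure D1:**
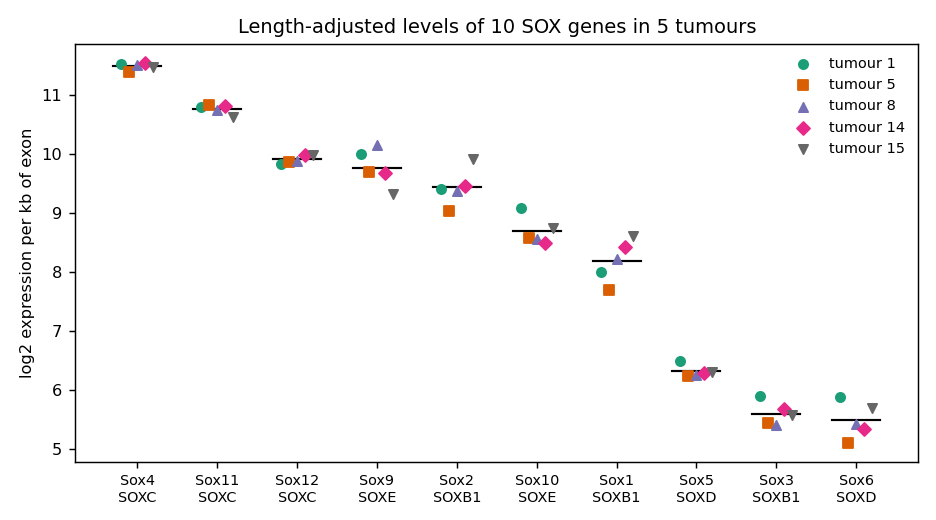
Log2 expression per kb of exon (y axis) of the 10 SOX genes (x axis, with subgroup) in 5 tumours. Each symbol is 1 library and the black bar is the mean of 5; Sox4 lies at 11.39 to 11.55, and Sox6 at 5.10 to 5.88.

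Each pair of genes was compared tumour by tumour, and the signs of the 5 differences were flipped in every combination (exact permutation, two-sided). No p below 0.0625 is possible with 5 tumours, so no pair can pass 0.05. Of all 45 pairs of members, 42 had the same sign in 5 of 5 tumours. Each of these 42 had the smallest p (0.0625, exact sign-flip permutation, adjusted 0.067 over 45 pairs). Of the 9 pairs of neighbours in the order, 6 kept 1 sign in all 5 tumours. The same share among pairs of all genes was not computed. Member means per kb spanned 11.50 to 5.48, while the median gene had an SD of 0.11 between tumours. The counts of pairs with 1 sign are therefore not read as particular to SOX genes. The 3 neighbours that did not differ beyond their spread were Sox12 and Sox9, with a difference of 0.14 ± 0.38 (SD, n = 5), Sox9 and Sox2 (0.33 ± 0.56), and Sox3 and Sox6 (0.11 ± 0.21). Their exact sign-flip permutation p were 0.5, 0.25 and 0.4375 in this order.

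**Figure D2:**
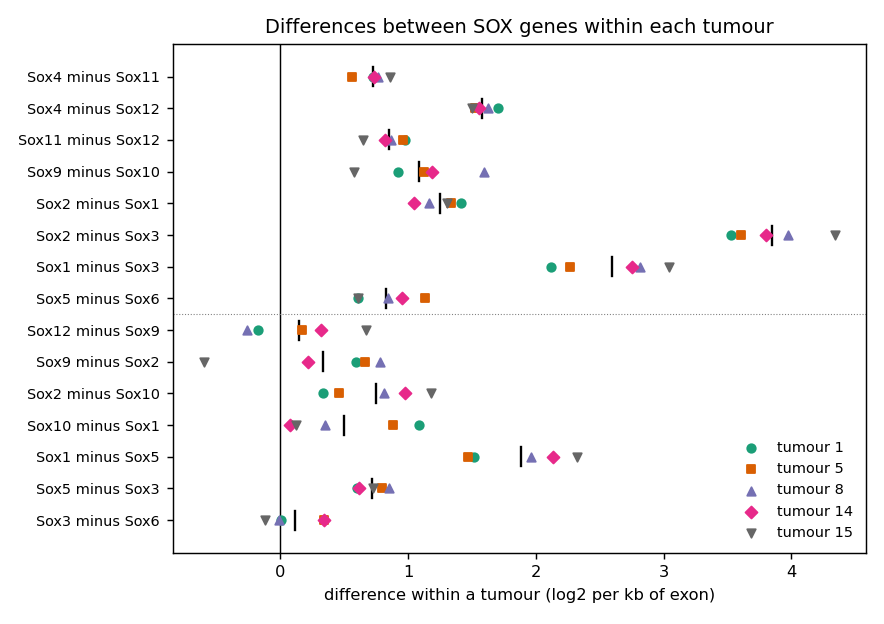
Difference of the log2 levels per kb within each tumour (x axis) for pairs of the same subgroup (above the dotted line) and for the other neighbours in the order of levels (below it). Symbols are the 5 tumours, black bars their means; every pair above the line lies right of 0, and Sox9 minus Sox2 runs from -0.60 in tumour 15 to 0.78 in tumour 8.

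The SOXC genes had the highest mean levels of the members and were the most even. Sox12 was not above Sox9 in every tumour: per kb, Sox12 minus Sox9 was -0.17 in tumour 1 and -0.26 in tumour 8. Sox4 (chr13:28948919-28953713), which acts in newly formed neurons, had log2 values of 13.80, 13.66, 13.78, 13.81 and 13.75 in tumours 1, 5, 8, 14 and 15. Sox11 (chr12:27334264-27342574), its close paralog with overlapping roles in neuronal maturation, had 13.86, 13.88, 13.81, 13.87 and 13.69. Sox12 (chr2:152393611-152398063), the weakest activator of the group, had 11.99, 12.03, 12.04, 12.15 and 12.14. The range over the 5 tumours was 1.11-fold for Sox4, 1.15-fold for Sox11 and 1.12-fold for Sox12, below the 1.21-fold range of the median gene. Sox4 exceeded Sox11 by 0.73 ± 0.10 and Sox12 by 1.58 ± 0.08 on the log2 scale per kb, in 5 of 5 tumours each. Without the length subtraction the difference of Sox4 minus Sox11 was -0.07. The lncRNA gene Gm26735, on the opposite strand, shares 2616 bases of exon with Sox4, which is 54.6% of the Sox4 exon length. The libraries were strand-specific per the labels' protocols, but no source used here gives the strand setting of the counting.

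Of 6 genes listed as SOXC targets, the neuronal tubulin gene Tubb3 averaged 13.45 ± 0.18 and Dcx, a microtubule-associated protein gene of migrating neurons, 13.73 ± 0.14. Stmn1, a regulator of microtubule turnover, averaged 13.75 ± 0.10. The median of the 6 was 13.37 to 13.55 over the tumours. Unlike the SOXC genes, the single targets were not especially even. Only Stmn1 had an SD below the median SD of genes whose mean was 5 or more (0.11). Tead2, a Hippo pathway factor reported as a SOXC target, had the largest SD of the 6 (0.42), with 11.05 and 10.91 in tumours 15 and 14, against 10.17 to 10.24 in tumours 5, 8 and 1.

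In the SOXB1 group, Sox1 and Sox2 were both lowest in tumour 5 and highest in tumour 15. Sox2 (chr3:34650405-34652461), a core factor of neural stem cells, had log2 values of 10.45, 10.08, 10.41, 10.51 and 10.96 in tumours 1, 5, 8, 14 and 15. Sox1 (chr8:12395295-12400126), which marks neural progenitors, had 10.27, 9.97, 10.49, 10.69 and 10.89. Tumours 5 and 15 stood at opposite ends, 1.83-fold apart for Sox2 and 1.88-fold for Sox1. The same 2 tumours hold the lowest and the highest value at 7.84% of the 13691 genes whose mean was 5 or more. Sox3 (chrX:60891366-60893430), an X-linked SOXB1 gene of progenitors and the hypothalamus, had lower values of 6.93, 6.48, 6.45, 6.71 and 6.62. Unlike the other SOXB1 genes it was highest in tumour 1, and its range was 0.48 on the log2 scale. Per kb, Sox2 exceeded Sox1 by 1.25 ± 0.15 and Sox3 by 3.85 ± 0.32, in 5 of 5 tumours each, and as deposited Sox2 and Sox1 differed by 0.02.

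Most listed neural stem cell genes had the same extreme tumours as Sox1 and Sox2. Of the 8, 7 were lowest in tumour 5 and 6 highest in tumour 15, with a list median of 10.21 in tumour 15 and 9.68 in tumour 5. Nes, an intermediate filament gene of neural stem cells, had 10.08 in tumour 15 and 9.20 in tumour 5, and Vim, another intermediate filament gene, 12.86 and 12.39 in the same order of tumours. Astrocyte and Bergmann glia markers did not share this pattern as a list: of 10, 5 were highest in tumour 5 and 3 in tumour 15. Pericyte and fibroblast markers were highest in tumour 15 for 5 of 7. In bulk libraries, fewer cells of a type and less RNA per cell cannot be told apart. The part of these cell types in the Sox1 and Sox2 values was not tested.

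Factors that act with SOXB1 proteins had SDs of 0.03 (Chd7) to 0.22 (Pou3f4), against 0.36 for Sox1 and 0.31 for Sox2. The median of the 6 listed partner genes was 10.72 to 11.04 over the tumours. Pax6 (13.30 ± 0.08) and the chromatin remodeller gene Chd7 (13.68 ± 0.03) were the highest of them. The POU factor gene Pou3f2, whose protein pairs with SOX2 in neural cells, averaged 10.78 ± 0.20 and was highest in tumour 14, not 15.

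Because Sox1 and Sox2 had the same extreme tumours, the promoter windows in RefSeq (GRCm38.p6, 250 bases before to 50 after the start) were searched on both strands for 4 motifs. Of the 10 members, 7 have an entry, with 12 windows in all; Sox3, Sox9 and Sox10 have none. The octamer core ATGCAAA, bound by POU factors, was found in 3 of the 12 windows, 1 each of Sox1, Sox2 and Sox12, and in 4.63% of all 32851 windows. These 27-base stretches show it in capitals, each on the strand of the gene.
Sox2, chr3:34649886-34649912 (plus strand): gccccctttcATGCAAAaccctctggc
Sox1, chr8:12395527-12395553 (plus strand): ccagcgcgccATGCAAAtcaccgccgc
Sox12, chr2:152398225-152398251 (minus strand): cgattgggagATGCAAAtgctgagttc
The motif begins 99 bases before the start in Sox2 and 195 before it in Sox12, and 18 bases after the start in Sox1. Sox12, unlike Sox1 and Sox2, was lowest in tumour 1 and highest in tumour 14, with a 1.12-fold range. The RefSeq start of Sox2 lies 410 bases upstream of the start in GENCODE M21, and that of Sox1 224 bases downstream, so their exon lengths and levels per kb depend on the annotation. The 250 bases before the Sox2 start, chr3:34649745-34649994 on the plus strand, have 72% G and C and hold the motif once:
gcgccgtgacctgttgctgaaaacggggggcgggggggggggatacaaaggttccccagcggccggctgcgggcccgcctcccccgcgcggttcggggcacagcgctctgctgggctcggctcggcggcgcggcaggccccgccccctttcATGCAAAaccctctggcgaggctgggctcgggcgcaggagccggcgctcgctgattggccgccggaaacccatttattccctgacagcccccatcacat
The GLI motif GACCACCCA was in 0 of the 12 windows and in 0.253% of all windows, a share at which 0 among 12 says nothing about the members. The SOX core AACAAT was in 1 window, of Sox6 (10.7% of all windows), and CCAAT in 8 of the 12 windows, from 6 of the 7 genes (37.4% of all windows). Of the 12 windows 6 belong to Sox6, so they are not independent. A match is a string of letters in these windows and not a measured binding site. The motifs were chosen with the expression values known.

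In the SOXE group, Sox9 and Sox10 differed in which tumours were high. Sox9 (chr11:112782224-112787760), which starts gliogenesis and is kept in astrocytes and Bergmann glia, had log2 values of 12.05, 11.75, 12.20, 11.73 and 11.37 in tumours 1, 5, 8, 14 and 15. Sox10 (chr15:79154908-79165240), the SOXE factor of the oligodendrocyte lineage, had 10.69, 10.19, 10.17, 10.10 and 10.35. Sox9 was highest in tumour 8 and lowest in tumour 15, with a 1.78-fold range. Sox10 stood above the other 4 tumours in tumour 1, with a range just over 1.5-fold. Per kb, Sox9 exceeded Sox10 by 1.08 ± 0.37 in 5 of 5 tumours, by 1.59 in tumour 8 and 0.58 in tumour 15. Sox9 and Sox2 exchanged places in tumour 15, where Sox2 was the higher by 0.60 on the log2 scale per kb, while in the other 4 tumours Sox9 was the higher, by 0.21 to 0.78.

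Oligodendrocyte precursor markers were also high in tumour 1, whereas markers of mature oligodendrocytes were low there. Of 8 precursor markers, 6 were highest in tumour 1, with a list median of 12.05 in tumour 1 and 11.37 to 11.84 in the others. Cspg4, a proteoglycan gene of these precursors, was 11.36 in tumour 1 against 10.13 to 10.81 elsewhere. The receptor gene Pdgfra averaged 12.67 ± 0.25 and was highest in tumour 8, at 12.96 against 12.90 in tumour 1. Ptprz1 was highest in tumour 15, at 12.83 against 12.71 in tumour 1. Of the 8 mature oligodendrocyte markers whose mean was 5 or more, 8 were lowest in tumour 1 and 8 highest in tumour 5. Mbp, a myelin gene activated by SOX10, was 13.46 in tumour 1 and 14.88 in tumour 5. Sox10 in tumour 5 (10.19) lay within the range of tumours 8, 14 and 15. Nkx2-2, a partner of SOX10 in the lineage, was also highest in tumour 1, at 9.37 against 8.74 to 9.22 elsewhere. As a list, the 8 partners and reported targets of SOXE proteins had a median level of 10.92 ± 0.06 over the tumours (SD, n = 5), with 4 highest in tumour 5 and 3 in tumour 1. Among them Nfia, a gliogenic partner of SOX9, averaged 14.13 ± 0.09, and Erbb3, a receptor gene activated by SOX10 in neural crest, 6.82 ± 0.22. The part of precursor cells in the Sox10 values was not tested.

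Astroglial markers as a list did not share the extreme tumours of Sox9: of 10, 1 was highest in tumour 8 and 1 was lowest in tumour 15. The one highest in tumour 8 was Gfap, the intermediate filament gene of astrocytes, at 12.60 there and 12.56 in tumour 15. In tumour 15, where Sox9 was lowest, Aqp4, the water channel of astrocytes, had its highest value (12.15, against 11.50 to 11.96 elsewhere). Slc1a3, a glutamate transporter gene of Bergmann glia, was lowest in tumour 8, where Sox9 was highest, at 12.53 against 12.57 to 13.12 elsewhere. The pair of extreme tumours of Sox9, highest in 8 and lowest in 15, was shared by 7.65% of all genes. The astrocyte and Bergmann glia list had its highest median in tumour 15 (11.44) and its lowest in tumour 1 (11.12).

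The SOXD genes Sox5 and Sox6 were both lowest in tumour 5 and highest in tumour 1, as were 6.04% of the genes tested. Sox6 (chr7:115470872-116038796), which with SOX5 restrains oligodendrocyte differentiation, had log2 values of 9.77, 8.99, 9.30, 9.22 and 9.58 in tumours 1, 5, 8, 14 and 15. Sox5 (chr6:143828425-144781977) had 10.33, 10.08, 10.10, 10.13 and 10.14. The order of tumours 1 and 5 was shared, but the range was 1.72-fold for Sox6 and 1.19-fold for Sox5. Per kb of all annotated exons, Sox5 exceeded Sox6 by 0.83 ± 0.23 in 5 of 5 tumours. Their exons sum to 14.4 and 14.8 kb, and the longest single transcripts are 7.24 and 8.67 kb, so levels per kb of these genes depend on the length used. With the longest transcript as length, Sox3 minus Sox6 was -0.66, against 0.11 with all exons. The antisense gene Sox5os1 shares 1330 bases of exon with Sox5, 9.25% of the Sox5 exon length.

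Of the 10 members, 4 had an SD between tumours above the 90th percentile of all genes and 4 lay below the median. The range exceeded 2-fold for 0 of 10 members, against 3.79% of all 13691 genes tested, a share at which a count of 0 among 10 genes says nothing about the members. It exceeded 1.5-fold for 5 of 10 members (Sox1, Sox2, Sox6, Sox9 and Sox10), against 14.7% of all genes. Without tumour 5 this count was 3 of 10 (8.89% of all genes) and without tumour 15 it was also 3 (10.5%). The SD between tumours was 0.36 for Sox1, 0.32 for Sox9, 0.31 for Sox2 and 0.31 for Sox6, all above the 90th percentile of all genes (0.28). Below the median SD of 0.11 lay Sox5, Sox11, Sox12 and Sox4. Since each tumour is 1 library, a difference between tumours has no replicate and no test.

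**Figure D3:**
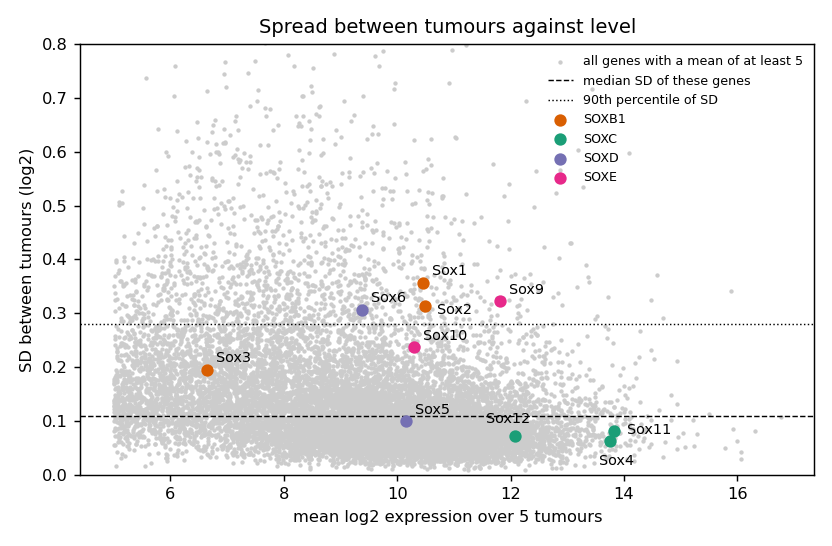
SD between the 5 tumours (y axis, log2) against the mean log2 expression (x axis) for genes whose mean was 5 or more (grey) and the 10 SOX genes (coloured by subgroup). The dashed line is the median SD (0.11) and the dotted line the 90th percentile (0.28); 20 genes with an SD over 0.8 lie outside the axis.

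By tumour, tumour 5 held the lowest value of 5 members (Sox1, Sox2, Sox4, Sox5 and Sox6), against 24.6% of all genes, and the highest value of 1 (Sox11), against 24.1%. Tumour 1 held the highest value of 4 (Sox3, Sox5, Sox6 and Sox10), against 20.2% of all genes, and the lowest of 1 (Sox12), against 16.9%. Tumour 15 held the highest value of 2 members (Sox1 and Sox2), against 21.4% of all genes, and the lowest of 2 (Sox9 and Sox11), against 22.9%. When tumour 1 was left out, tumour 15 held the highest value of 5. Tumour 14 was highest for Sox4 and Sox12 (15.8% of all genes) and lowest for Sox10 (13%), and tumour 8 was highest for Sox9 (18.5%) and lowest for Sox3 (22.6%). These counts of 1 to 5 among 10 genes move easily: without tumour 15, tumour 14 was highest for 4 members.

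Of the 10 members, 1 lay over 1.5-fold from the median of the other 4 tumours in any tumour, against 7.96% of all genes. It was Sox1, by -0.62 in tumour 5, where 2.01% of all genes lay as far below and 2.55% as far above. With all 5 tumours, 0 members were as far from the others in the remaining tumours. In tumour 15 this count was 1 without tumour 5, 1 without tumour 8, 2 without tumour 14, and 1 against the mean of the others in place of the median. The share of all genes as far above was 1% in tumour 1, 0.964% in tumour 8, 0.095% in tumour 14 and 2.59% in tumour 15. The share as far below was 0.928% in tumour 1, 0.124% in tumour 8, 0.708% in tumour 14 and 0.694% in tumour 15. Without tumour 15 no member was over 1.5-fold from the others in tumour 5, and without tumour 8 there were 2. In tumour 5, 7 of 8 SHH target genes were also lowest, with a median of 12.26 against 12.71 to 13.00 in the other tumours. Of 8 microglia and macrophage markers 7 were highest there, and of 5 choroid plexus markers 4. Mature granule neuron genes had a median of 8.76 there, against 7.16 to 7.90 elsewhere. Of these 8 genes 5 were highest in tumour 5, and 3, among them Rbfox3 and Cbln1, were highest in tumour 15. Of 8 cell cycle genes 5 were lowest in tumour 5. The makeup of the tumours by cell type was not measured, and the part of these marker differences in the SOX values was not tested.

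**Figure D4:**
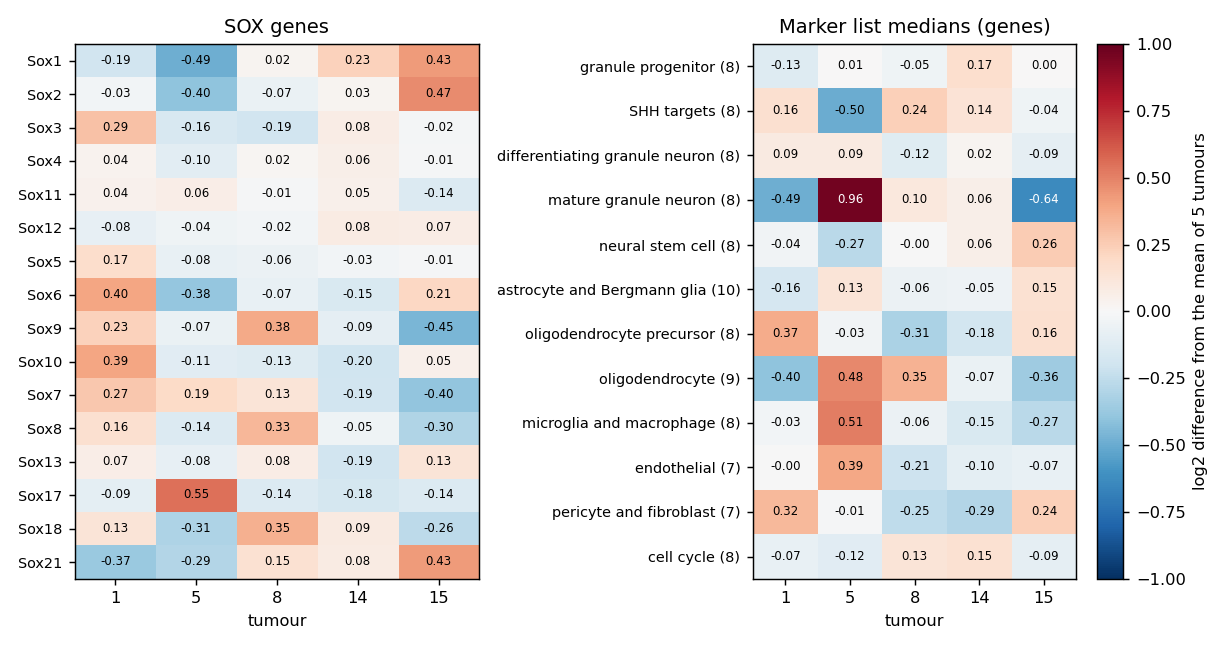
Log2 difference of each row from its own mean over the 5 tumours, in columns by tumour. On the left are the 10 members above, then 6 other SOX genes whose mean was 5 or more. On the right are the medians of the marker lists named there. The choroid plexus, Purkinje cell, GABAergic interneuron and SOX partner and target lists are not drawn. Numbers give the difference; Sox1 and Sox2 are at -0.49 and -0.40 in tumour 5 and at 0.43 and 0.47 in tumour 15, and the SOXC genes lie within 0.14 of their means.

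For the 4 members with an SD above the 90th percentile, the genes of most similar values over the 5 tumours were taken by the root mean square difference after centring each gene on its mean. The gene nearest to Sox2 was Sox1ot, a lncRNA gene that spans Sox1, at 0.03 on the log2 scale, followed by Chrdl1, a secreted BMP antagonist, and Alcam, a cell adhesion gene. The median gene was at 0.30 from Sox2. Nearest to Sox1 were the retinoic acid binding protein gene Crabp1 (0.06), the axon guidance gene Slit1 and the Rac activator gene Dock1. Nearest to Sox6 were Sned1 (0.04), AW551984 and Galnt10, and nearest to Sox9 were Pdxp (0.06), Diras1 and Ppp1r13b. The nearest SOX gene of Sox1 was Sox2, at rank 28 of 13690 genes, while at the same distance of 0.13 Sox1 held rank 173 among the genes nearest to Sox2. The nearest SOX gene of Sox9 was Sox8, at rank 8, and that of Sox6 was Sox10, at rank 175. Each rank is that of the closest among all other SOX genes whose mean was 5 or more, a choice that favours low ranks. These likenesses rest on 5 libraries and describe the values alone.

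Other SOX genes placed these members in the family. Sox8, the remaining SOXE gene, had log2 values of 10.50, 10.20, 10.67, 10.30 and 10.04 in tumours 1, 5, 8, 14 and 15, highest in tumour 8 and lowest in tumour 15 like Sox9. Sox9 minus Sox8 was 1.07 ± 0.10 per kb, between 0.92 and 1.15. Sox8 minus Sox10 was 0.01 ± 0.32 and above 0 in 2 of 5 tumours. Sox21, a SOXB2 gene that counters SOXB1 action, had 7.66, 7.74, 8.18, 8.12 and 8.46, highest in tumour 15 like Sox1 and Sox2 but lowest in tumour 1. The lncRNA gene Sox2ot, whose transcripts span Sox2 on the same strand without sharing exon bases in GENCODE M21, averaged 8.72 ± 0.18, also lowest in tumour 5 and highest in tumour 15.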

How the data were processed

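Expression was measured by strand-specific mRNA sequencing in 5 libraries. The values the authors deposited are on a log2 scale; that they are regularised-log values from DESeq2 is taken from the table's short name and was not otherwise stated. The authors used STAR 2.4.1, featureCounts from Subread 1.4.6 and DESeq2, with mm10 and GRCm38, per the submitters' processing notes. Such values are pulled towards the gene's mean at low counts, which understates differences of weakly expressed genes such as Sox3. Read counts were not used here, so depth is unknown. Column medians lay between 8.51 and 8.58. Another 2 columns of the table match no sample in the labels and were not used, and whether they entered the transformation is not stated. No pair of libraries shared an identical value at a gene whose mean was 5 or more.

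Exon lengths (union of exons) and positions came from GENCODE M21 (GRCm38), in which 97.5% of symbols matched exactly 1 gene. Members and lists were chosen with earlier results of these data known. All members are named. The rule also allowed the other SOX genes, the first gene and the 2 of highest mean of each list, and the 3 nearest genes of members with an SD above the 90th percentile. Tead2, Cspg4, Nkx2-2, Gfap, Pou3f4 and Sox2ot were named after their values were seen. The alternatives were length choices, leaving out each tumour, centring of libraries, other filters and fold limits. Steps were tested on simulated data. Python 3.11.15, numpy 2.4.6, pandas 2.3.3, scipy 1.17.1 and matplotlib 3.10.9 were used.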

Additional observations from a re-analysis of the deposited data

Results flagged for a closer look

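In 33 sets of 5 values (18 SOX genes and 15 pairs), 2 held a library far from the others, where chance flags about 1 set in 20. Sox5 was 10.33 in tumour 1, while the other 4 tumours lay at 10.08 to 10.14. The gap to the nearest of them was 0.747 of the whole range, above the limit of 0.71, although the range was only 1.19-fold. Sox17, an endothelial SOXF gene, was 7.43 in tumour 5, against 6.70 to 6.79 elsewhere, a gap of 0.883 of the range. Of 7 endothelial markers, 5 were also highest in tumour 5, with a list median of 9.98 against 9.39 to 9.59. Their part in the Sox17 value was not tested.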

How the results depend on the processing

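Of the 15 pair differences reported, 12 kept their sign under all 8 alternatives each. Centring cancels in a difference within a library, so it could not change any sign. Leaving out a tumour cannot reverse a pair with 1 sign in 5 of 5 tumours. For such pairs only the choice of length could change the sign. Without length subtraction, Sox4 minus Sox11 was -0.065, Sox10 minus Sox1 -0.16 and Sox3 minus Sox6 -2.73; with the longest transcript as length, Sox3 minus Sox6 was -0.66. These sign changes come from the lengths themselves. Mean levels of the 10 genes moved by less than 1 SD in 60 of 60 values without length subtraction. Leaving out 1 of 5 values cannot move a mean by 1 SD, and the centring leaves the mean unchanged. That count was therefore fixed in advance and says nothing about robustness. The count of members over 2-fold in range was 0, and 5 with a limit of 1.5-fold. Leaving out each tumour in turn gave 3 to 5 members over 1.5-fold in range (chosen after seeing the data). It gave 1 to 2 members lowest in tumour 1, 1 to 3 in tumour 8 and 1 to 2 in tumour 14, and 2 to 4 highest in tumour 14 and 2 to 5 in tumour 15. Members over 1.5-fold from the others numbered 0 to 2 in tumour 5 and 0 to 2 in tumour 15, or 1 in tumour 15 against the mean of the others. No paired analysis was possible because the labels give 1 group. Depth is unknown, so no counting interval can be given, and the labels do not say that the libraries come from separate animals.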

Other observations

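Among the SOX genes outside the 10, Sox18, a SOXF gene known from blood and lymphatic vessel development, had the highest level per kb of any SOX gene in the table, at 12.05 on the log2 scale, against 11.50 for Sox4. It exceeded Sox4 in 5 of 5 tumours, by 0.31 to 0.89. Its log2 values as deposited were 12.87, 12.44, 13.10, 12.83 and 12.49 in tumours 1, 5, 8, 14 and 15. The other SOXF genes were far lower: Sox18 exceeded Sox7 by 6.69 ± 0.32 and Sox17 by 7.43 ± 0.53 per kb (SD, n = 5). Sox18 was lowest in tumour 5 and Sox17 highest there, where 5 of 7 endothelial markers were highest. The endothelial marker Pecam1 averaged 9.17 ± 0.29 as deposited. These comparisons were chosen after the values were seen and were not tested.

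Sox13, the remaining SOXD gene, averaged 8.76 ± 0.13, with a 1.25-fold range. Sox15 and Sox30 stood near the bottom of the table, at 3.20 ± 0.08 and 2.22 ± 0.01.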
